A study of Homo sapiens with 4 samples.

Results

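The transcriptional response of K562 cells to periplocin was described from 2 of the 4 libraries of the study, the K562 library exposed to 100 nM periplocin for 72 h and the K562 library given DMSO for the same time. These libraries were picked by their names, and the other 2 came from THP-1 monocytic leukemia cells treated in the same way. K562 is an established human line from a chronic myeloid leukemia in blast crisis. It carries the BCR-ABL1 fusion, and it can be driven towards red cell or megakaryocyte features by chemicals. Periplocin is a plant cardiac glycoside, a class of compounds that bind the sodium pump. The control is called control blank in the sample labels and DMSO in the library name and the study's methods.

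Each group was 1 library from 1 culture, so the spread between cultures was not measured and no test of the treatment was possible. Differences below compare 2 libraries. Gene lists and their members were chosen with earlier results of these data known, so list shares set beside those of all genes are descriptive only. Counts are given with the DMSO library first and the periplocin library second, and the libraries held 16381151 and 16560528 counts. The log2 ratio is periplocin over DMSO after library scaling, and the interval after it is its exact 95% one, which covers counting error only. A value alone in brackets after a gene is its log2 ratio. A gene was called higher or lower when it differed by at least 2-fold and its interval excluded equality, and only genes averaging 1 CPM or more over the pair (CPM, counts scaled to a fixed library total) were measured. In bulk RNA, a change in the share of cells of a kind cannot be told apart from a change in the RNA of each cell.

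Red cell precursors build hemoglobin from globin chains and heme, take up iron through the transferrin receptor, and assemble a spectrin skeleton anchored to the membrane through band 3. GATA1, TAL1 and KLF1 drive this programme, while MYB and GATA2 are known for the earlier progenitor state. ATF4 is the main effector of the integrated stress response. It is translated when amino acids are short or the endoplasmic reticulum is stressed, and it switches on genes for amino acid supply, transport and tRNA charging.

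The labelled cell type was checked against its markers. All 10 K562 identity genes were measured in the pair, among them HBG1, HBG2, HBE1, TFRC, GATA1, TAL1, KLF1, NFE2 and LMO2. None of 7 B and plasma cell markers reached the filter, with 13 counts in the DMSO library and 14 in the periplocin library over the list. Of 9 T and NK cell markers 2 were measured, with 163 and 147 counts over the list. Of 15 monocyte and THP-1 markers 6 were measured, with 1885 and 1642 counts over the list. Of 6 fibroblast markers 1 was measured, decorin (DCN, 5 and 53 counts). Of 6 endothelial markers 2 were measured, EGFL7 (899 and 457 counts) and PECAM1 (64 and 22 counts). The epithelial genes KRT8, KRT18, KRT19 and EPCAM were measured in the DMSO library too, where KRT18 had 6466 counts and EPCAM 743.

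The deposited data listed 20330 genes, and 11852 of them were measured. In the periplocin library 1049 genes were higher, 8.85% of those measured, and 1367 were lower, 11.5%. The median log2 ratio was -0.01, the quartiles were -0.50 and 0.45, and 6984 genes (58.9%) lay within 1.5-fold of equality. At 8-fold or more, 96 genes were higher and 93 were lower. The share called differed with level. Among 2560 genes between 1 and 10 CPM 16.4% were higher and 26.4% lower, whereas among 2580 genes over 100 CPM 8.0% were higher and 5.0% lower. The median distance from a log2 ratio to the bounds of its interval was 0.59 in the low band and 0.077 in the high band.

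Of the 12 steepest rises among genes averaging 10 CPM or more over the pair 4 were on the erythroid lists. EPB42, which encodes protein 4.2 of the red cell skeleton, had 24 and 1374 counts, log2 ratio 5.81, interval 5.23 to 6.46. AQP1, the water channel that carries the Colton antigen, had 80 and 2911 counts, log2 ratio 5.16, interval 4.84 to 5.50. CA1, the carbonic anhydrase of mature red cells, had 427 and 7808 counts, log2 ratio 4.17, and SLC4A1, band 3, had 1257 and 22563 counts, log2 ratio 4.14. The other 8 were not on those lists. ESPN, an actin-bundling protein, had 395 and 7272 counts, log2 ratio 4.18. BCL6, a transcriptional repressor, had 292 and 4440 counts, log2 ratio 3.90, and ID2, an inhibitor of E proteins, had 102 and 1327 counts, log2 ratio 3.68. The remaining 5 were the acetyl-CoA synthetase ACSS1 (15 and 362 counts), the secreted ribonuclease RNASE1 (106 and 1639 counts), the junction protein PLEKHA7 (31 and 424 counts), the anchored surface glycoprotein CD24 (43 and 565 counts) and the chondroitin sulfotransferase CHST3 (235 and 2880 counts).

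The steepest fall was of KLHDC7B, a kelch-domain gene placed on the ATF4 list, with 906 and 3 counts, log2 ratio -8.26, interval -10.54 to -6.71. Its periplocin count is at the floor of 3, so the size of the fall is poorly bounded. TMEM154, a transmembrane protein, had 800 and 15 counts, log2 ratio -5.76, interval -6.61 to -5.03, and INHBE, the inhibin beta E chain, had 2589 and 121 counts, log2 ratio -4.45. AKNA, a centrosomal and AT-hook protein, had 4531 and 254 counts, log2 ratio -4.18, and the netrin receptor UNC5B had 3483 and 217 counts, log2 ratio -4.03. These 2 were well covered in DMSO, and little of their signal remained. The other falls among the 12 steepest were of the annexin ANXA3 (442 and 18 counts), TM6SF1 (395 and 17 counts), the lipase inhibitor G0S2 (479 and 24 counts), NFILZ (1322 and 68 counts), the calcium-binding protein S100P (757 and 47 counts), the Ras exchange factor RASGRP3 (476 and 30 counts) and the phospholipase PLCH1 (419 and 27 counts).

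**Figure D1:**
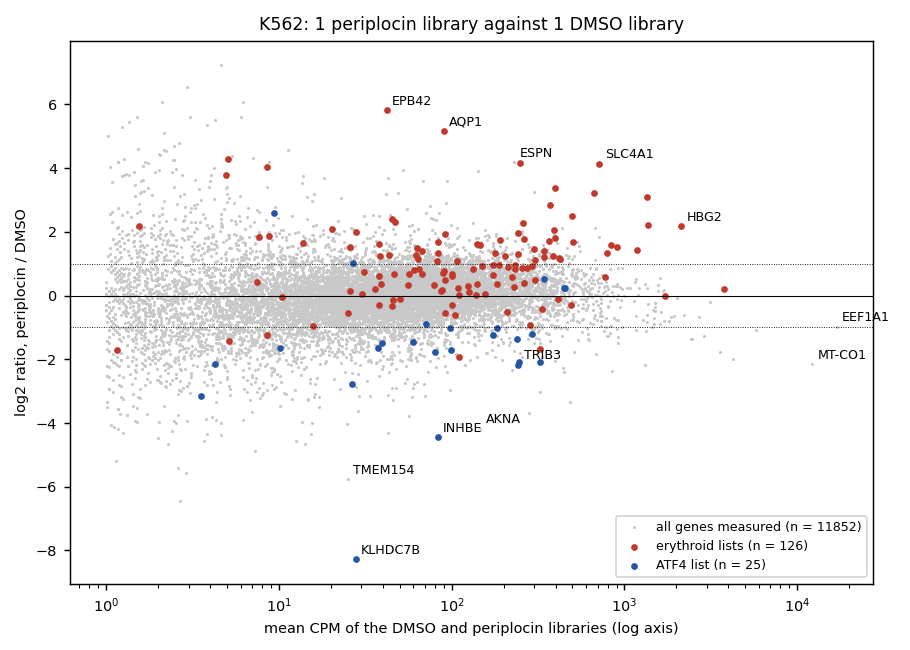
Log2 ratio of periplocin to DMSO (y axis) against the mean CPM of both K562 libraries (x axis, log scale) for 11852 genes, 1 point per gene, with dotted lines at 2-fold. Red points, the 126 measured genes of the erythroid lists, lie mostly above 0, up to EPB42 at 5.81, and blue points, the 25 measured genes of the ATF4 list, lie mostly below, down to KLHDC7B at -8.26.

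Some genes were present in 1 library only or nearly so, and those named here were chosen after their values were seen. Of the genes called higher, 32 had at most 3 counts in DMSO. FAIM2, an inhibitor of Fas signalling, had 1 and 152 counts, log2 ratio 7.22, interval 4.72 to 12.53, PCK1, the cytosolic gluconeogenic carboxykinase, had 3 and 139 counts, log2 ratio 5.51, interval 3.93 to 7.80, and the transcription factor CREB3L3 had 1 and 96 counts, log2 ratio 6.56, interval 4.05 to 11.88. NPC1L1, the intestinal cholesterol transporter, had 0 and 72 counts, 23.6-fold higher when the 0 is set to the floor of 3 counts. The lower bound of its log2 interval was 4.22. In the other direction 22 genes had at most 3 counts in periplocin. ABLIM3, an actin-binding LIM protein, had 86 and 1 counts, log2 ratio -6.45, interval -11.77 to -3.94. MCEMP1, a membrane protein of myeloid cells, had 74 and 0 counts, 25.1-fold lower with the 0 set to the same floor. The upper bound of its log2 interval was -4.32.

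The composition of the libraries changed at the top. The 10 genes with most counts took 8.04% of the DMSO library and 3.89% of the periplocin library, taking the 10 of each library in turn. EEF1A1, the elongation factor that took the most counts in both, had 366734 and 190073 counts, log2 ratio -0.97. RPLP0, a ribosomal stalk protein often used as a reference gene, had 66606 and 28083 counts, log2 ratio -1.27. FTH1, the ferritin heavy chain, had 57546 and 66899 counts, log2 ratio 0.19. Of the 10 genes with most counts in DMSO 7 were mitochondrial, and in periplocin 3 were, with HBG2, HBA1 and HBG1 among the 10 there. Transcripts of the mitochondrial genome took 5.62% of the DMSO library and 2.07% of the periplocin library.

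All 13 mitochondrially encoded genes had a negative log2 ratio and 9 were lower, with a median of -1.29. The cytochrome oxidase subunits MT-CO1 (327194 and 74626 counts, log2 ratio -2.16), MT-CO3 (111239 and 28358 counts, log2 ratio -1.998) and MT-CO2 (89619 and 26917 counts, log2 ratio -1.76) were furthest down. The ATPase subunits MT-ATP6 (-1.35) and MT-ATP8 (-1.29) lay between them and the complex I subunit MT-ND4 (-1.08). MT-ND1 (-1.36), MT-ND3 (-1.45) and MT-ND4L (-1.14) were lower too. MT-CYB (-0.81), MT-ND5 (-0.62), MT-ND6 (-0.49) and MT-ND2 (54601 and 48070 counts, log2 ratio -0.21) did not pass 2-fold. Leaving mitochondrial and globin genes out of the scaling moved the median of all genes by 0.00026 on the log2 scale.

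The erythroid lists held 136 genes, of which 126 were measured and 10 lay below the filter. In the periplocin library 59 of the 126 (46.8%) were higher, against 8.85% of all genes measured, and 5 (3.97%) were lower, against 11.5%. The median log2 ratio was 0.93, and 105 of the 126 were positive. The choice of these lists was not blind to earlier results of these data, so the shares only describe them. List medians were highest for globins, channels and blood groups, and membrane genes, and lowest for iron handling and transcription factors.

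All 9 measured globin-list genes were higher, with a median of 2.22, and their summed counts were 30748 and 173714. The alpha-cluster genes were HBA2 (1138 and 12070 counts, log2 ratio 3.38), HBA1 (4625 and 40067 counts, log2 ratio 3.09) and the embryonic HBZ (2119 and 19908 counts, log2 ratio 3.21). The fetal genes were HBG1 (7877 and 37482 counts, log2 ratio 2.22) and HBG2 (12616 and 58012 counts, log2 ratio 2.17), and the embryonic epsilon gene HBE1 had 2295 and 5741 counts, log2 ratio 1.297. HBA1 and HBA2 encode the same protein and HBG1 and HBG2 differ little, so the division of reads within each pair is uncertain. AHSP, the chaperone of free alpha globin, had 8 and 160 counts, log2 ratio 4.30, interval 3.28 to 5.53. The theta gene HBQ1 had 61 and 229 counts, log2 ratio 1.88, interval 1.47 to 2.31 and the delta gene HBD 9 and 42 counts, log2 ratio 2.20, interval 1.14 to 3.42. Adult beta globin, HBB, had 0 and 3 counts, and HBM had none in either library. Embryonic, fetal and alpha-type chains thus carried the globin signal in both libraries.

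Of 15 genes of the red cell membrane and skeleton 9 were higher and 1 was lower, with a median of 1.32. Besides EPB42 and SLC4A1, the spectrin gene SPTB (1611 and 6404 counts, log2 ratio 1.96) was higher. So was ankyrin ANK1 (6828 and 20947 counts, log2 ratio 1.59), which ties spectrin to band 3, and so were the adducins ADD2 (1.78) and ADD1 (1.40). Dematin DMTN (1.498) and tropomodulin TMOD1 (1.23), which caps actin filaments, were higher too. EPB41, protein 4.1, had 10053 and 15466 counts, log2 ratio 0.60, and STOM, stomatin, had 1287 and 2006 counts, log2 ratio 0.61. TMCC2, a coiled-coil membrane protein, was the only one lower (195 and 85 counts, log2 ratio -1.22, interval -1.61 to -0.85).

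Among 23 measured channels, carbonic anhydrases and blood group genes 17 were higher and 2 lower, with a median of 1.60. The glucose transporter SLC2A1 had 2455 and 13959 counts, log2 ratio 2.48, the carbonic anhydrase CA2 257 and 1297 counts, log2 ratio 2.31, and KCNN4, the Gardos potassium channel, 185 and 746 counts, log2 ratio 1.99. The blood group carriers included GYPC (3742 and 9007 counts, log2 ratio 1.24), KEL (1140 and 3525 counts, log2 ratio 1.60) and RHAG (7340 and 18767 counts, log2 ratio 1.33). ERMAP, which carries the Scianna antigens, had 2494 and 10470 counts, log2 ratio 2.04, and RHD had 125 and 547 counts, log2 ratio 2.10. RHD and RHCE are close copies, so the split between them is uncertain. The lower genes were the fucosyltransferase FUT1 (122 and 46 counts, log2 ratio -1.43) and CD44 (29 and 9 counts, log2 ratio -1.71, interval -2.98 to -0.60), which carries the Indian antigens.

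Heme synthesis was covered from first to last step. Of 17 measured genes 10 were higher and none lower, and 16 were positive, with a median of 1.15. ALAS2, the erythroid form of the rate-limiting synthase, had 1483 and 10789 counts, log2 ratio 2.84, and its housekeeping form ALAS1 had 415 and 1019 counts, log2 ratio 1.27. ALAD (1.39), UROS (1.13) and CPOX (1.93) followed, and FECH, which inserts the iron, had 1445 and 7116 counts, log2 ratio 2.27. UROD (-0.09) and PPOX (0.69) did not pass 2-fold. The porphyrin transporters ABCB6 (1.67) and ABCG2 (1.52) and the biliverdin reductase BLVRB (1.15) were higher.

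Iron handling moved less, with 3 of 16 genes higher, none lower and a median of 0.10. The transferrin receptor TFRC had 10500 and 28826 counts, log2 ratio 1.43, the endosomal iron transporter SLC11A2 1131 and 2426 counts, log2 ratio 1.07, and NCOA4, the receptor for ferritin breakdown, 4192 and 9679 counts, log2 ratio 1.18. The mitochondrial importer SLC25A37 (0.97) and TFR2 (0.94) came close to 2-fold. The ferritin light chain FTL (-0.02), the iron regulator IREB2 (0.00) and the hormone ERFE (-0.53) stayed within it. Of 26 late erythroid genes 8 were higher and none lower, with a median of 0.75. They included YPEL4 (16 and 268 counts, log2 ratio 4.04), the protease CTSE (11 and 153 counts, log2 ratio 3.77), acetylcholinesterase ACHE (234 and 1264 counts, log2 ratio 2.41), the erythropoietin receptor EPOR (305 and 953 counts, log2 ratio 1.62) and the red cell pyruvate kinase PKLR (1186 and 3612 counts, log2 ratio 1.58). BCL2L1, whose BCL-XL product keeps late erythroblasts alive, had 6050 and 3272 counts, log2 ratio -0.91.

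Among 20 measured erythroid transcription factors and cofactors 3 (15%) were higher, against 8.85% of all genes, and 2 (10%) lower, against 11.5%. The median was 0.24. KLF1, which activates globin and skeleton genes, had 1428 and 4883 counts, log2 ratio 1.75, the adaptor LDB1 2589 and 7268 counts, log2 ratio 1.46, and TAL1 3350 and 7895 counts, log2 ratio 1.21. GATA1 had 2715 and 4959 counts, log2 ratio 0.84, below 2-fold, and GATA2 had 4008 and 2864 counts, log2 ratio -0.51. MYB had 8071 and 2592 counts, log2 ratio -1.66 and RUNX1, a regulator of progenitors and megakaryocytes, had 2855 and 770 counts, log2 ratio -1.92. Of the 20 genes 14 had a positive ratio and 6 a negative one. BCL11A, a repressor of fetal globin, was at 3 and 0 counts, too few for a ratio.

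**Figure D2:**
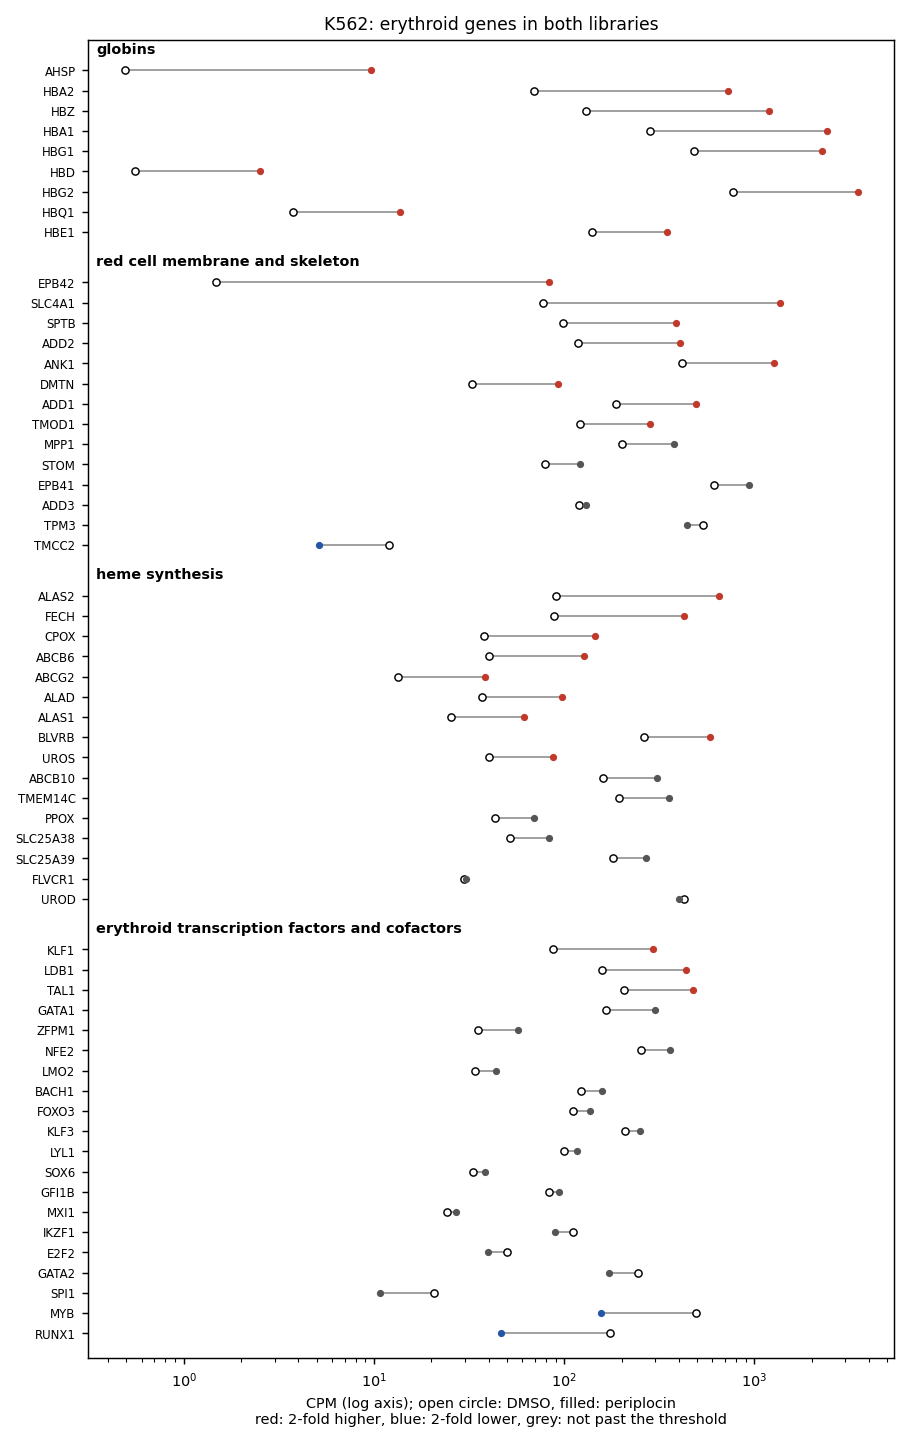
Level of the measured genes reported from 4 erythroid lists in CPM (x axis, log scale), with an open circle for the DMSO library and a filled one for the periplocin library, and the gene symbol on the y axis. Globin, membrane and heme genes move to the right in periplocin with few exceptions, as SLC4A1 does from 1257 to 22563 counts, whereas most transcription factors move little and MYB and RUNX1 move to the left.

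Sequence upstream of the start was examined for erythroid genes called higher at a mean of at least 10 CPM that had an entry in the RefSeq promoter table (GRCh38.p14), taken in order of their rise. No window is shown for CA1, SLC4A1, HBA2, HBZ or HBA1, nor for SLC2A1, whose window is wholly untranslated exon. The bases shown are those of the 250 before the start that no annotated transcript covers as untranslated exon, in the direction of transcription. EPB42 (chr15:43221126-43221268, minus strand), AQP1 (chr7:30911603-30911693, plus strand) and ALAS2 (chrX:55031065-55031227, minus strand) are shown because they had the largest rises of the genes with a window left, and capitals mark the letters AGATAA or TGATAA, the GATA factor motif, read on either strand.
EPB42: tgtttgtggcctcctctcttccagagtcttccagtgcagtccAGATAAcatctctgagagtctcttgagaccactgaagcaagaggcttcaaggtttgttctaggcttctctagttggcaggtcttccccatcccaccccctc
AQP1: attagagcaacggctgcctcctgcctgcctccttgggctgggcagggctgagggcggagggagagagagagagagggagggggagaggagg
ALAS2: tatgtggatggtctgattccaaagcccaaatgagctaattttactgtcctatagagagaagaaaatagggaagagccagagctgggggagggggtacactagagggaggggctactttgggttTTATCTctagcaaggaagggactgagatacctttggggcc
EPB42 holds the motif 208 bases before its start and ALAS2 holds it, on the opposite strand, 127 bases before. AQP1 shows none in the stretch printed. Over the 250 bases before the start, 13 of 42 higher erythroid genes with an entry held the motif (31.0%), as did 5 of 49 erythroid genes that did not pass 2-fold (10.2%). It was present in 7.41% of the 9586 measured genes with an entry and in 14.9% of all 27305 promoters. The CACCC motif (CCACACCC, CCGCACCC, CCACGCCC or CCGCGCCC, either strand), a form of the KLF1 site, was found in 1 of the 42 and in 16 of the 49, against 21.8% of measured genes. Base composition was not matched in these counts, and a match of letters does not show binding.

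Stress-response lists held 189 genes, 177 of them measured. In the periplocin library 46 (26.0%) were lower, against 11.5% of all genes, and 12 (6.78%) were higher, against 8.85%, with a median of -0.25. The ATF4 list stood lowest. Of its 25 measured genes 19 were lower and 2 higher, with a median of -1.48, and its summed counts were 76523 and 42650. Its members, KLHDC7B among them, were chosen with earlier results of these data known, so these counts only describe the list.

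ATF4 itself had 6722 and 8071 counts, log2 ratio 0.24. Its mRNA was thus not lower, and its translation was not measured. ASNS, asparagine synthetase, had 6784 and 8177 counts, log2 ratio 0.24, and DDIT3, which encodes CHOP, had 1499 and 821 counts, log2 ratio -0.89. Other classical targets were lower, among them the pseudokinase TRIB3 (6499 and 1465 counts, log2 ratio -2.18), the mTORC1 inhibitors SESN2 (6525 and 1556 counts, log2 ratio -2.09) and DDIT4 (8581 and 2059 counts, log2 ratio -2.09), and the glutathione-degrading enzyme CHAC1 (932 and 303 counts, log2 ratio -1.65). The partner factors ATF3 (-1.48), ATF5 (-1.37), CEBPB (-1.47) and CEBPG (-1.24) were lower too. The secreted members were INHBE, ADM2 (754 and 113 counts, log2 ratio -2.76), STC2 (2477 and 772 counts, log2 ratio -1.71) and GDF15 (3997 and 1998 counts, log2 ratio -1.03). The lipoprotein receptor VLDLR had 104 and 12 counts, log2 ratio -3.14, interval -4.14 to -2.28. Against the list, the collagen receptor DDR2 had 44 and 268 counts, log2 ratio 2.58, interval 2.12 to 3.07 and the differentiation gene NDRG1 had 292 and 598 counts, log2 ratio 1.01.

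Upstream sequence is shown for the genes of this list with the largest falls and a table entry, by the same rule: KLHDC7B (chr22:50545649-50545890, plus strand), ADM2 (chr22:50481293-50481542, plus strand), TRIB3 (chr20:381170-381245, plus strand) and SESN2 (chr1:28259268-28259517, plus strand). Capitals mark TGATGNAA, the core of the C/EBP-ATF response element, or CCAAT, the NF-Y motif, on either strand.
KLHDC7B: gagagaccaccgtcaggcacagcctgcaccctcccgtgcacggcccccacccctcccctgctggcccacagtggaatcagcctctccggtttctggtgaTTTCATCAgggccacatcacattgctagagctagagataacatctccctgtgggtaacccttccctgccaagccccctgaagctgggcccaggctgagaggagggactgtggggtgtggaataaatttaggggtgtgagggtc
ADM2: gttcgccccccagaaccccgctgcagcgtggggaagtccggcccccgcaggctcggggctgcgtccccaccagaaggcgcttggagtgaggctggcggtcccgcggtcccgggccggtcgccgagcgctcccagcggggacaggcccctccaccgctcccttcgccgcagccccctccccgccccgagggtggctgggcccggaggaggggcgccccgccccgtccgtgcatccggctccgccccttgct
TRIB3: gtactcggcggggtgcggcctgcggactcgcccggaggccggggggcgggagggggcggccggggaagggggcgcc
SESN2: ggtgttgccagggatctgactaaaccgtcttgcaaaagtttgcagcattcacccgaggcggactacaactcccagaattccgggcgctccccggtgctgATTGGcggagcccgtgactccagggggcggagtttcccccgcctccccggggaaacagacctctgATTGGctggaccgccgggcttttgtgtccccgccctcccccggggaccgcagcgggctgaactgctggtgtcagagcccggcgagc
KLHDC7B holds the response element core on the opposite strand 151 bases before its start, and SESN2 holds 2 inverted CCAAT boxes, 151 and 86 bases before. ADM2 and TRIB3 show neither in the stretch printed. The response element core was found in 3 of 16 lower genes of the list with an entry (18.8%), against 1.36% of measured genes and 3.19% of all promoters, and CCAAT in 8 of the 16, against 35.7% of measured genes. Genes of the list that were not lower were not counted. The contrast thus sets ATF4 targets against all genes, and it cannot tie either motif to the fall.

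Enzymes of serine, proline and folate metabolism followed the same direction. Of 18 measured 8 were lower and none higher, with a median of -0.86. SHMT2, the mitochondrial serine hydroxymethyltransferase, had 12203 and 2348 counts, log2 ratio -2.40. The serine pathway enzymes PSAT1 (14802 and 5678 counts, log2 ratio -1.41) and PSPH (1195 and 408 counts, log2 ratio -1.58) were lower, whereas PHGDH, its entry step, had 4949 and 4463 counts, log2 ratio -0.18. The mitochondrial folate enzymes MTHFD2 (-1.16), MTHFD1L (-1.29) and ALDH1L2 (-1.81), the mitochondrial carboxykinase PCK2 (-2.01) and the transaminase GOT1 (-1.46) were lower. The cytosolic folate enzymes MTHFD1 (0.28) and SHMT1 (-0.47) did not pass 2-fold. PCK1, the cytosolic form of PCK2, was not on this list and was higher (3 and 139 counts).

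Of 20 cytosolic aminoacyl-tRNA synthetases none was higher, and the median was -0.51. Only 3 (15%) were lower, near the 11.5% of all genes. They were WARS1 (18507 and 8429 counts, log2 ratio -1.16), IARS1 (17100 and 8034 counts, log2 ratio -1.12) and NARS1 (7234 and 3662 counts, log2 ratio -1.01), while SARS1 had 5747 and 8029 counts, log2 ratio 0.46. Among 15 amino acid transporters 3 (20%) were lower, against 11.5% of all genes, and 1 (6.67%) higher, against 8.85%. SLC7A5, the large neutral amino acid exchanger, had 14377 and 5712 counts, log2 ratio -1.36, its partner SLC3A2 had 9488 and 14091 counts, log2 ratio 0.54, and the cystine carrier SLC7A11 had 3282 and 2804 counts, log2 ratio -0.25. SLC43A2 (-2.25) and SLC1A4 (-1.001) were lower, and SLC7A8 was higher (58 and 233 counts, log2 ratio 1.98). The genes of the SLC7A5 and SLC3A2 exchanger thus differed in direction.

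Of 24 endoplasmic reticulum genes 5 (20.8%) were lower, against 11.5% of all genes, and none higher, against 8.85%, with a median of -0.54. The chaperone HSPA5, or BiP, had 18549 and 7843 counts, log2 ratio -1.27, the sensor ERN1, or IRE1, had 1648 and 403 counts, log2 ratio -2.06, and its splicing target XBP1 had 4787 and 1748 counts, log2 ratio -1.48. SEL1L (-1.93) and EDEM1 (-1.25), which serve the disposal of misfolded proteins, were lower. HSP90B1 (14826 and 15369 counts, log2 ratio 0.03) and CANX (19441 and 20002 counts, log2 ratio 0.01) were nearly equal in the libraries, and CALR, calreticulin, had 7304 and 13597 counts, log2 ratio 0.87. The other sensors, ATF6 (-0.24) and EIF2AK3, or PERK (-0.69), did not pass 2-fold.

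Of 21 cytosolic heat shock genes 4 (19.0%) were higher, against 8.85% of all genes, and none was lower, with a median of 0.30 and 7 negative ratios. HSPA1A had 4940 and 11922 counts, log2 ratio 1.24 and its near-identical copy HSPA1B 3485 and 6035 counts, log2 ratio 0.77, between which reads may be divided arbitrarily. HSPB1 (1556 and 3242 counts, log2 ratio 1.03) and the factor HSF2 (316 and 834 counts, log2 ratio 1.37) were higher, and CRYAB had 8 and 64 counts, log2 ratio 2.97, interval 1.91 to 4.25. The mitochondrial chaperonin HSPD1 had 10382 and 6216 counts, log2 ratio -0.77. Of 19 NRF2 and antioxidant genes only NQO1 was called, with 1400 and 642 counts, log2 ratio -1.15, and the list median was 0.05. Of 20 hypoxia-response genes 2 (10%) were higher, against 8.85% of all genes, and 4 (20%) lower, against 11.5%. VEGFA, the endothelial growth factor, had 10371 and 3068 counts, log2 ratio -1.78. The glucose transporter SLC2A3 had 3983 and 1175 counts, log2 ratio -1.79, and hexokinase HK2 had 647 and 301 counts, log2 ratio -1.13. The regulators of glycolysis PFKFB3 (708 and 253 counts, log2 ratio -1.51) and PFKFB4 (126 and 558 counts, log2 ratio 2.12) differed in direction, and the lipase inhibitor ANGPTL4 had 23 and 51 counts, log2 ratio 1.12, interval 0.39 to 1.90. The glycolytic genes LDHA (0.60), ALDOA (0.56) and PGK1 (0.13) did not pass 2-fold.

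**Figure D3:**
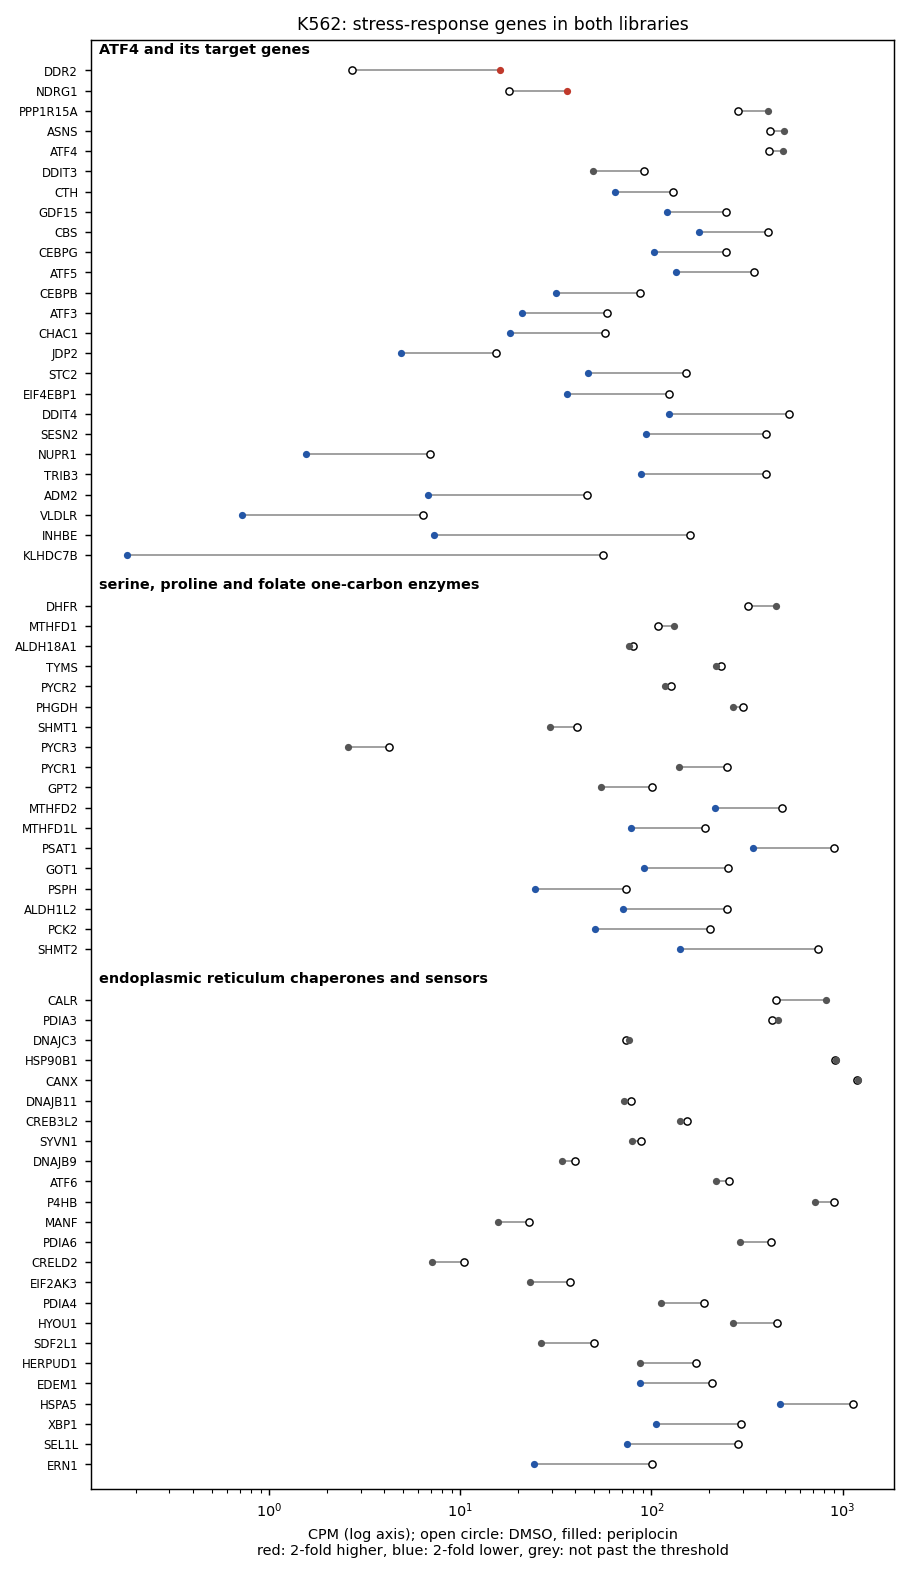
Level in CPM (x axis, log scale) of each measured gene of the ATF4, amino acid and folate enzyme, and endoplasmic reticulum lists, with an open circle for the DMSO library and a filled one for the periplocin library. Most genes of the first list move to the left, INHBE from 2589 to 121 counts, while ATF4 and ASNS move slightly to the right.

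Cell cycle and growth lists held 250 genes, 219 measured, of which 55 (25.1%) were higher, against 8.85% of all genes, and 8 (3.65%) lower, against 11.5%. Replication-dependent histones held 30 of the higher genes and the G2/M list 17, whereas the S phase list held none.

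Of 53 measured G2/M genes 17 were higher and none lower, 48 were positive, and the median was 0.72. AURKA, a spindle pole kinase, had 1083 and 4046 counts, log2 ratio 1.88. The checkpoint kinase BUB1 had 1777 and 5926 counts, log2 ratio 1.71, and CDC20, an activator of the anaphase-promoting complex, had 1376 and 4391 counts, log2 ratio 1.65. NUSAP1 (1.40), HMMR (1.27), the kinetochore genes NUF2 (1.33) and NDC80 (1.20), and the mitotic kinesin CENPE (1.11) were higher as well. MKI67, the proliferation marker, had 7370 and 11892 counts, log2 ratio 0.66, and TOP2A had 10545 and 19685 counts, log2 ratio 0.87, both below 2-fold. CDC25C had 569 and 429 counts, log2 ratio -0.43. CCAAT was present in the 250 bases before the start of 10 of 14 higher genes of this list with an entry (71.4%), against 35.7% of measured genes. The G2/M genes that were not called were not counted, so this contrast cannot tie the motif to the rise.

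Of 43 S phase genes none was higher, against 8.85% of all genes, and 4 (9.30%) were lower, a smaller share than the 11.5% of all genes. The median was -0.18. RRM2, a ribonucleotide reductase subunit, had 4505 and 1563 counts, log2 ratio -1.55, the primase PRIM1 1852 and 649 counts, log2 ratio -1.54, and cyclin CCNE2 394 and 180 counts, log2 ratio -1.16. The replicative helicase genes spread to either side, with MCM5 at 0.75, MCM4 at 0.68, MCM6 at 0.09 and MCM7 at -0.27. PCNA had 3100 and 2784 counts, log2 ratio -0.18.

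Of 19 cyclins, CDKs and their activators 3 (15.8%) were higher, against 8.85% of all genes, and 2 (10.5%) lower, against 11.5%. The mitotic cyclin genes CCNB1 (1429 and 4298 counts, log2 ratio 1.56) and CCNB2 (919 and 2124 counts, log2 ratio 1.18) were higher, and CCNA2 had 2851 and 4973 counts, log2 ratio 0.78. CCND1, the growth factor-responsive D-type cyclin, had 1365 and 186 counts, log2 ratio -2.90, CCND2 had 2971 and 1782 counts, log2 ratio -0.76, and CCND3 4990 and 5509 counts, log2 ratio 0.12. The kinases CDK4 (0.00) and CDK2 (-0.01) were level, and CDK6 had 5002 and 3502 counts, log2 ratio -0.54. Among 13 inhibitors and RB family genes CDKN1C was higher (165 and 483 counts, log2 ratio 1.52) and CDKN1A lower (825 and 386 counts, log2 ratio -1.12). Each made 7.69% of that list, under the 8.85% higher and 11.5% lower of all genes. CDKN1B had 984 and 1494 counts, log2 ratio 0.58, and the pocket protein genes RB1 (-0.30), RBL1 (-0.37) and RBL2 (0.73) did not pass 2-fold. The others on this list were CDKN2C (0.17), CDKN2D (-0.09), CDKN3 (0.16), LIN9 (0.30), LIN37 (0.40), LIN52 (0.82) and LIN54 (-0.02).

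Of 58 replication-dependent histone genes 32 were measured and 26 were below the filter. In the periplocin library 30 of the 32 were higher and none lower, with a median of 2.04, and summed counts of 7565 and 26729. With no filter the median over 53 genes was 1.93. Every class was represented. The linker histone gene H1-2 had 2777 and 8414 counts, log2 ratio 1.57. Among core histones H2AC6 had 995 and 4201 counts, log2 ratio 2.05, H2BC12 had 775 and 2773 counts, log2 ratio 1.81, and H3C10 had 320 and 1237 counts, log2 ratio 1.92. H4C15 stood furthest out, from few counts, with 4 and 196 counts, log2 ratio 5.59, interval 4.21 to 7.48. The measured genes that were not called were H4C14 (279 and 246 counts, log2 ratio -0.21) and H3C4 (17 and 30 counts, log2 ratio 0.79, interval -0.11 to 1.74). Copies of a histone class are near-identical, so reads may be divided between them. Their transcripts mostly lack a poly-A tail, and these libraries were made from poly-A RNA. RNA quality and tail status were not measured here, and their part in the difference was not tested. SLBP, which binds the histone stem-loop, had 2270 and 2148 counts, log2 ratio -0.11. In the THP-1 pair all 10 measured histone genes were higher, with a median of 2.22.

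MYC had 5322 and 2889 counts, log2 ratio -0.91 and its relative MYCL 734 and 171 counts, log2 ratio -2.13. The antagonists MXD4 (357 and 975 counts, log2 ratio 1.42) and MXD3 (76 and 190 counts, log2 ratio 1.296) were higher, and MXD1 had 1010 and 1786 counts, log2 ratio 0.80. MAX, the shared partner, had 1183 and 1153 counts, log2 ratio -0.06. The remaining members MLXIP (0.96), MNT (0.52), MLX (0.24), MXI1 (0.14) and MGA (-0.03) did not pass 2-fold. Of 33 ribosome biogenesis genes 1 was lower, RRP9 (320 and 126 counts, log2 ratio -1.37), and the median was -0.27. Among 21 E2F factors and G0 genes, TOB1 (344 and 867 counts, log2 ratio 1.31), FOXO4 (425 and 1070 counts, log2 ratio 1.31) and BTG2 (1366 and 3021 counts, log2 ratio 1.12) were higher and none was lower. The higher genes made 14.3% of that list, against 8.85% of all genes.

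**Figure D4:**
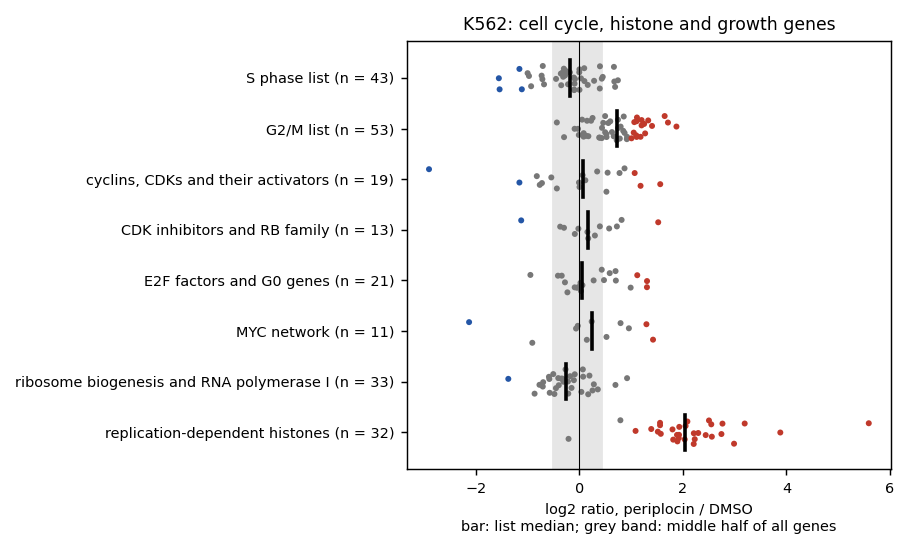
Log2 ratio of periplocin to DMSO (x axis) for each measured gene of 8 cell cycle and growth lists (y axis), 1 point per gene, with red and blue for genes called higher and lower, a black bar at each list's median and a grey band over the quartile range of all genes measured. Histones lie almost wholly above the band with a median of 2.04, the G2/M median is 0.72 and the S phase median is -0.18.

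Surface molecules moved in both directions. Of 169 measured genes 29 (17.2%) were higher, against 8.85% of all genes, and 38 (22.5%) lower, against 11.5%, with a median of -0.09. Level was not matched in these shares, and among all genes between 1 and 10 CPM 16.4% were higher and 26.4% lower. A further 122 of the 291 listed were below the filter. Of the higher genes 3 and of the lower ones 1 were also on the erythroid lists.

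The TNF receptor superfamily had 13 measured members, with a median of -0.89. Of these 6 (46.2%) were lower, against 11.5% of all genes, and 3 (23.1%) higher, against 8.85%. TNFRSF1A, the broadly expressed TNF receptor, had 853 and 97 counts, log2 ratio -3.16, interval -3.48 to -2.86, and TNFRSF1B, its leukocyte counterpart, had 607 and 721 counts, log2 ratio 0.22. TNFRSF8, or CD30, had 438 and 46 counts, log2 ratio -3.28, interval -3.75 to -2.84. The TRAIL receptors TNFRSF10B (1463 and 373 counts, log2 ratio -1.998) and TNFRSF10A (476 and 261 counts, log2 ratio -0.89) both had fewer counts, the latter within 2-fold. TNFRSF12A (200 and 69 counts, log2 ratio -1.56), TNFRSF13C (52 and 13 counts, log2 ratio -2.03, interval -3.03 to -1.13) and TNFRSF21 (40 and 3 counts, log2 ratio -3.76, interval -6.10 to -2.11) were lower. TNFRSF9, or 4-1BB, had 4 and 63 counts, log2 ratio 3.95, interval 2.52 to 5.87, EDA2R 13 and 70 counts, log2 ratio 2.40, interval 1.54 to 3.38, and TNFRSF14, or HVEM, 98 and 292 counts, log2 ratio 1.55. LTBR (-0.40) and RELT (0.05) did not pass 2-fold.

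Among genes of T and NK cell recognition 2 of 18 (11.1%) were higher, against 8.85% of all genes, and 3 (16.7%) lower, against 11.5%. VSIR, the checkpoint molecule VISTA, had 1738 and 196 counts, log2 ratio -3.17, interval -3.40 to -2.96, ICOSLG, the ligand of ICOS, 727 and 137 counts, log2 ratio -2.43, interval -2.71 to -2.17, and ULBP1, a ligand of the activating receptor NKG2D, 1009 and 428 counts, log2 ratio -1.26. HLA-C had 56 and 121 counts, log2 ratio 1.09, interval 0.62 to 1.57 and the galectin LGALS9 39 and 81 counts, log2 ratio 1.03, interval 0.46 to 1.62.

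Of 43 measured cytokine and growth factor receptors 4 (9.30%) were higher, against 8.85% of all genes, and 8 (18.6%) lower, against 11.5%. IL1R1, the signalling receptor of interleukin-1, had 168 and 995 counts, log2 ratio 2.54, and the fibroblast growth factor receptor FGFR3 had 416 and 1361 counts, log2 ratio 1.68. EPOR was higher as given above, and IL9R had 14 and 41 counts, log2 ratio 1.52, interval 0.62 to 2.51. The lower ones included IL4R (259 and 38 counts, log2 ratio -2.80), CSF3R, the G-CSF receptor (84 and 12 counts, log2 ratio -2.83, interval -3.84 to -1.95), IL2RB (32 and 4 counts, log2 ratio -3.03, interval -4.99 to -1.53), MET (192 and 79 counts, log2 ratio -1.31) and TYRO3 (795 and 331 counts, log2 ratio -1.29). Among 18 G protein coupled and chemokine receptors none was higher and 4 (22.2%) were lower. The share lower was 11.5% over all genes and 26.4% over those between 1 and 10 CPM. The 4 were P2RX1 (1135 and 339 counts, log2 ratio -1.77), F2RL3 (544 and 216 counts, log2 ratio -1.36), ADGRG1 (45 and 6 counts, log2 ratio -2.93, interval -4.45 to -1.70) and ADGRG3 (31 and 9 counts, log2 ratio -1.81, interval -3.07 to -0.70). P2RX1 is an ATP-gated channel kept on that list.

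Anchored antigens and complement regulators had 8 of 23 (34.8%) higher and 6 (26.1%) lower, against 8.85% and 11.5% of all genes. CD59 (2822 and 9320 counts, log2 ratio 1.70) and CD46 (4708 and 10889 counts, log2 ratio 1.18), which protect cells from complement, were higher, as was the complement receptor CR1 (23 and 47 counts, log2 ratio 1.005, interval 0.26 to 1.79). CD14, the lipopolysaccharide coreceptor of monocytes, had 1 and 69 counts, log2 ratio 6.08, interval 3.56 to 11.41, whereas the myeloid antigens CD33 (362 and 127 counts, log2 ratio -1.54) and ANPEP, or CD13 (126 and 34 counts, log2 ratio -1.92), were lower. The early activation antigen CD69 had 1719 and 257 counts, log2 ratio -2.77, and the anaphylatoxin receptor C3AR1 had 42 and 5 counts, log2 ratio -3.10, interval -4.79 to -1.76. CD93 had 35 and 132 counts, log2 ratio 1.89, interval 1.34 to 2.47. Other myeloid genes did not all follow CD14: ITGAM had 33 and 75 counts, log2 ratio 1.16, interval 0.55 to 1.80, LYZ 752 and 1062 counts, log2 ratio 0.47, SPI1 339 and 179 counts, log2 ratio -0.95 and MS4A3 349 and 91 counts, log2 ratio -1.97.

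Integrins and adhesion molecules were split, with 7 of 32 higher (21.9%) and 7 lower (21.9%), against 8.85% and 11.5% of all genes. Among all genes between 1 and 10 CPM the shares were 16.4% higher and 26.4% lower. ITGA1, a collagen-binding subunit, had 3 and 79 counts, log2 ratio 4.69, interval 3.09 to 7.001, the scavenger receptor CD36 35 and 218 counts, log2 ratio 2.61, and ITGB7 14 and 52 counts, log2 ratio 1.87, interval 0.99 to 2.83. ITGA3 (40 and 8 counts, log2 ratio -2.35, interval -3.65 to -1.23), CD96 (225 and 62 counts, log2 ratio -1.89) and ITGB4 (146 and 44 counts, log2 ratio -1.76) were lower. Of 10 megakaryocyte and platelet surface genes 2 (20%) were higher and 4 (40%) lower, against 8.85% and 11.5% of all genes. The higher ones were GP1BB (1193 and 4106 counts, log2 ratio 1.76) and ITGB3 (30 and 73 counts, log2 ratio 1.26, interval 0.63 to 1.92). The 4 lower ones were ITGA2B, the partner of ITGB3 (126 and 56 counts, log2 ratio -1.20), GP6 (109 and 47 counts, log2 ratio -1.24), F2RL3 and PEAR1 (263 and 129 counts, log2 ratio -1.05). GP1BA (67 and 64 counts, log2 ratio -0.09), CD9 (93 and 173 counts, log2 ratio 0.87), F2R (0.34) and THBD (0.31) did not pass 2-fold. Thus GP1BB was called and its partner GP1BA was not, while ITGA2B and ITGB3 were called in opposite directions. Among 17 tetraspanins CD82 had 29 and 165 counts, log2 ratio 2.48 and CD53 703 and 1667 counts, log2 ratio 1.22, and TSPAN9 had 62 and 13 counts, log2 ratio -2.28, interval -3.27 to -1.40.

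Secreted factors were measured for 133 of 359 listed genes, and 226 were below the filter. In the periplocin library 26 (19.5%) were higher, against 8.85% of all genes, and 32 (24.1%) lower, against 11.5%. Here too level was not matched, and the shares among all genes between 1 and 10 CPM were 16.4% and 26.4%. Of the lower ones 5 were also on the stress lists, INHBE, GDF15, VEGFA, ADM2 and STC2.

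In the TGF-beta superfamily the lower genes included, besides INHBE and GDF15, AMH (114 and 30 counts, log2 ratio -1.95), INHBC (46 and 16 counts, log2 ratio -1.55, interval -2.47 to -0.70) and NRROS, an anchor of latent TGF-beta (548 and 163 counts, log2 ratio -1.78). INHA, the alpha chain of inhibin, had 46 and 141 counts, log2 ratio 1.59, interval 1.10 to 2.10, TGFB2 7 and 39 counts, log2 ratio 2.45, interval 1.27 to 3.86 and TGFB3 11 and 29 counts, log2 ratio 1.37, interval 0.33 to 2.52. INHA and the beta chain INHBE therefore went opposite ways.

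Of 17 measured cytokines 4 (23.5%) were lower, against 11.5% of all genes, and 1 (5.88%) higher, against 8.85%. Among all genes between 1 and 10 CPM 26.4% were lower and 16.4% higher. The inflammatory cytokine IL6 had 195 and 50 counts, log2 ratio -1.99, and IL18 had 63 and 10 counts, log2 ratio -2.68, interval -3.81 to -1.71. CLCF1, which signals through the same receptor chain as IL6, had 66 and 28 counts, log2 ratio -1.26, interval -1.96 to -0.61, and IL23A had 80 and 40 counts, log2 ratio -1.03, interval -1.61 to -0.46. In the other direction TNFSF13B, or BAFF, a survival factor of B cells, had 10 and 40 counts, log2 ratio 1.97, interval 0.95 to 3.14. Only 3 of 34 chemokines were measured. CXCL2 (34 and 9 counts, log2 ratio -1.94, interval -3.19 to -0.85) and CXCL3 (60 and 17 counts, log2 ratio -1.85, interval -2.72 to -1.05) were lower, and CXCL8 had 23 and 11 counts, log2 ratio -1.09, interval -2.27 to 0.00. Of 26 growth and angiogenic factors 4 (15.4%) were higher and 7 (26.9%) lower, near the shares between 1 and 10 CPM. PDGFB (37 and 133 counts, log2 ratio 1.82, interval 1.28 to 2.39) was among the higher. PDGFA (129 and 29 counts, log2 ratio -2.18, interval -2.81 to -1.59) and WNT10B (36 and 11 counts, log2 ratio -1.74, interval -2.86 to -0.73) were among the lower.

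Matrix and plasma proteins leaned upwards, with 11 of 33 (33.3%) higher and 2 (6.06%) lower, against 8.85% and 11.5% of all genes. COL18A1, the source of endostatin, had 1931 and 6527 counts, log2 ratio 1.73, LGALS3BP 235 and 957 counts, and APOE 720 and 1755 counts, log2 ratio 1.26. Fibrillin FBN1 (4 and 78 counts, log2 ratio 4.26, interval 2.85 to 6.17), vitronectin VTN (4 and 49 counts, log2 ratio 3.59, interval 2.14 to 5.52) and decorin DCN (5 and 53 counts, log2 ratio 3.38, interval 2.07 to 5.06) came from a few counts. The lower genes were THBS1, thrombospondin (208 and 48 counts, log2 ratio -2.14), and COL6A2 (41 and 7 counts, log2 ratio -2.58, interval -3.98 to -1.41). Of the matrix genes that were higher, the fibroblast marker DCN is noted beside the marker counts above, where the other 5 fibroblast markers were below the filter.

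Among proteases and inhibitors 3 of 22 (13.6%) were higher and 7 (31.8%) lower, against 8.85% and 11.5% of all genes. SERPINI1, or neuroserpin, had 239 and 1586 counts, log2 ratio 2.70, TFPI, the tissue factor pathway inhibitor, 563 and 1567 counts, log2 ratio 1.45, and SPINT1 48 and 157 counts, log2 ratio 1.68. The urokinase gene PLAU had 321 and 38 counts, log2 ratio -3.10, interval -3.63 to -2.62, MMP17 191 and 24 counts, log2 ratio -3.02, interval -3.70 to -2.40, MMP15 899 and 349 counts, log2 ratio -1.39, and the neutrophil-type protease PRSS57 250 and 45 counts, log2 ratio -2.50. Of the S100 genes S100A4 stood at 14 and 151 counts, log2 ratio 3.40, interval 2.61 to 4.31, S100A11 at 1581 and 693 counts, log2 ratio -1.22, S100A10 at 28 and 16 counts, log2 ratio -0.83, and S100P among the steepest falls as above. The S100 genes thus showed no common direction. Among neuropeptide genes NMU, the one with most counts, had 5266 and 9144 counts, log2 ratio 0.77, and galanin, GAL, had 223 and 319 counts, log2 ratio 0.49. GNRH1 (21 and 63 counts, log2 ratio 1.56, interval 0.83 to 2.35) and TAC3 (5 and 34 counts, log2 ratio 2.74, interval 1.38 to 4.45) were higher. Urocortin, UCN (51 and 12 counts, log2 ratio -2.11, interval -3.16 to -1.19), and secretogranin SCG2 (104 and 16 counts, log2 ratio -2.73, interval -3.59 to -1.96) were lower.

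**Figure D5:**
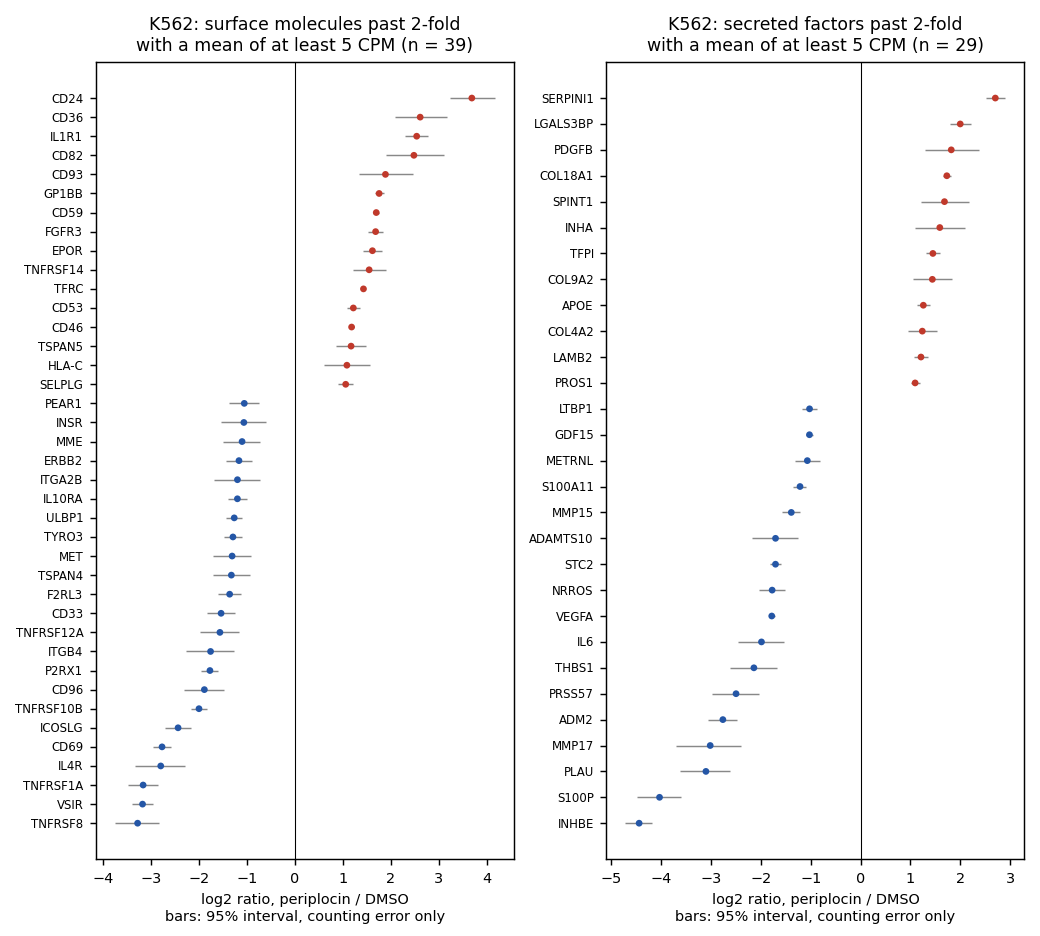
Log2 ratio of periplocin to DMSO (x axis) for surface (left, 39 genes) and secreted (right, 29 genes) genes called higher or lower with a mean of at least 5 CPM, ordered by ratio, with bars for the 95% interval from counting error only. The panels run from CD24 at 3.69 to TNFRSF8 at -3.28 and from SERPINI1 at 2.70 to INHBE at -4.45.

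The sodium pump is the known target of cardiac glycosides. Among its beta subunits ATP1B3 had 1522 and 5424 counts, log2 ratio 1.81, ATP1B2 57 and 457 counts, log2 ratio 2.98, interval 2.58 to 3.40 and ATP1B1 60 and 73 counts, log2 ratio 0.26, and the regulator FXYD5 had 3529 and 4425 counts, log2 ratio 0.30.

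The THP-1 pair, with the same dose and time and 1 library per group, is given only beside these values, and no test compared the lines. There 8.04% of 12326 measured genes were higher and 10.5% lower. Of 92 measured erythroid-list genes 9 were higher and 14 lower, with a median of -0.08. AQP1 was among the 9 higher there too, with 11 and 250 counts, log2 ratio 4.74. Of 22 ATF4-list genes 5 were higher and none lower, with a median of 0.46, and INHBE had 30 and 40 counts and KLHDC7B 5 and 0. Of 54 G2/M genes none was called, with a median of 0.02, and of 33 ribosome biogenesis genes 15 were lower, with a median of -0.97. Enzymes of serine, proline and folate metabolism had 6 of 18 lower and none higher, with a median of -0.71.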

How the data were processed

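Poly-A RNA from K562 cells was sequenced by the authors from 1 DMSO and 1 periplocin culture, with RNA integrity checked and paired-end reads. The labels name an Illumina NovaSeq instrument, and the study's methods the T7 platform. The authors deposited 1 table of expected counts, a column for each library, without normalization or pooling. The submitters' processing notes name HISAT2, StringTie 1.3.1 and hg38, and the program that wrote the counts is not given in the sources used here. The kit does not mark strand as described, so overlapping antisense genes cannot be told apart.

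Expected counts were rounded to whole numbers. The 18 pairs of equal X and Y rows were summed, which left 20330 genes. Libraries were scaled by TMM in edgeR 4.0.16 (R 4.3.3), and no count model was fitted because each group has 1 library. Intervals at 95% are exact binomial ones on the 2 counts, and a count of 3 was the floor. Estimated counts share ambiguous reads, so counting error is a lower limit on the error. Symbols were matched to 56 lists, of which 1 symbol was not found. Chromosomes, lengths and GC content came from GENCODE 29, and sequences from RefSeq. The intervals and calls were tested on simulated Poisson counts with the scaling of the real libraries. That test covered neither the scaling itself nor the spread between cultures. The members and lists were chosen with earlier results of these data known.

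Some genes and 1 list are not reported here by name, and list counts include every measured member. Genes were named by a rule: the 12 largest rises and falls called at a mean of at least 10 CPM, up to 5 rises and 5 falls per list, every member of lists with 13 genes or fewer, and the 10 genes with most counts per library. Other genes named from the lists, and those from near 0 counts, were chosen after their values were seen. Alternatives were other scalings, filters and thresholds, and an adjustment for GC content and length.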

Additional observations from a re-analysis of the deposited data

Results flagged for a closer look

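For 26 of the 298 genes named by the rule the K562 periplocin library differed from DMSO by at least 2-fold in one direction and the THP-1 periplocin library in the other. Each line has 1 library per group, so this contrast between them was not tested. The log2 ratios below give K562 first and THP-1 second.

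Of the 8 genes that were higher in K562 and lower in THP-1, the actin and skeleton genes were ESPN (4.18 against -2.08), ADD2 (1.78 against -1.49) and ANK1 (1.59 against -1.13). The sterol genes were INSIG1 (1.43 against -1.34) and LSS (1.15 against -1.43). The others were FGFR3 (1.68 against -1.01), ITGA9 (1.20 against -2.38) and TGFB3 (1.37 against -1.66).

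Of the 18 genes that were lower in K562 and higher in THP-1, those of the ATF4 and amino acid transporter lists were ATF3 (-1.48 against 2.07), STC2 (-1.71 against 2.28) and SLC43A2 (-2.25 against 1.83). The death receptor gene was TNFRSF10B (-1.998 against 1.09). The surface genes were C3AR1 (-3.10 against 4.28), ANPEP (-1.92 against 1.09), CD109 (-1.57 against 1.52), CD44 (-1.71 against 1.15) and F2RL3 (-1.36 against 2.34). The secreted or calcium-binding products were THBS1 (-2.14 against 2.20), PDGFA (-2.18 against 1.12) and S100A11 (-1.22 against 1.23). The remaining ones were TM6SF1 (-4.56 against 3.26), G0S2 (-4.35 against 2.53), RASGRP3 (-4.01 against 3.32), CDKN1A (-1.12 against 2.44), WIPI1 (-1.01 against 2.03) and ETV5 (-2.09 against 1.34). Several rest on few counts in 1 line. RASGRP3 had 6 and 51 counts in THP-1, THBS1 had 11 and 43, and TGFB3 had 11 and 29 in the K562 pair.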

How the results depend on the processing

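No paired analysis was possible because each group has 1 library, and for the same reason no replicate could be left out. Requiring 4-fold in place of 2-fold left 235 genes higher and 330 lower over all genes. On the lists it left 20 higher and 0 lower for the erythroid lists, 3 and 12 for the stress lists, 17 and 2 for cell cycle and growth, 8 and 14 for surface molecules, and 8 and 12 for secreted factors. With a mean of at least 5 CPM, 16 surface genes were higher and 23 lower, and 12 secreted genes were higher and 17 lower. Under the other scalings (total counts, RLE, TMM without mitochondrial and globin genes), without the filter, at 2-fold alone, and after adjustment for GC content and length, each of the 12 counts stayed within 1.5 times its value. Of 2416 called genes 2261 kept their call after that adjustment and 2376 under RLE, and none changed direction under these alternatives. Of the log2 ratios of 298 genes named by the rule, 45 left their counting interval after that adjustment, 17 under RLE and 1 under total counts. Of 49 list medians 3 left their interval without the filter, and 1 each at 5 CPM, after the adjustment, and under TMM without mitochondrial and globin genes. The median of all genes moved by at most 0.027 between scalings. Counting error limits the precision of low genes, since a gene between 1 and 10 CPM has an interval about 0.59 wide on either side.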

Other observations

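Further lists are given as counts, beside 8.85% of all genes measured that were higher and 11.5% that were lower. Of 23 measured genes of ERK feedback and the immediate early response 8 were lower and 3 higher, with a median of -0.52. The ETS factors ETV4 (1542 and 253 counts, log2 ratio -2.63) and ETV5 (901 and 215 counts, log2 ratio -2.09), the feedback inhibitor SPRY4 (1055 and 187 counts, log2 ratio -2.52) and EGR1 (2182 and 467 counts, log2 ratio -2.25) were lower. JUN (1029 and 2505 counts, log2 ratio 1.26), DUSP1 (158 and 370 counts, log2 ratio 1.20) and FOSB (13 and 94 counts, log2 ratio 2.83, interval 1.98 to 3.79) were higher. Other AP-1 genes had no common direction, with FOSL1 lower (237 and 108 counts, log2 ratio -1.16), FOS at -0.21 and JUNB at 0.23. Of 10 STAT5 target genes 2 were lower and 1 higher, a share read from few genes. PIM2 (8626 and 2333 counts, log2 ratio -1.91) and SOCS1 (336 and 124 counts, log2 ratio -1.46) were lower, and BCL6, which STAT5 is known to repress, was higher. CISH had 3007 and 4320 counts, log2 ratio 0.50, PIM1 14315 and 13006 counts, log2 ratio -0.16 and SOCS2 6071 and 3749 counts, log2 ratio -0.72.

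Of 14 measured BCL2 family genes 2 were higher and 2 lower (14.3% each), near the shares over all genes. BCL2 itself had 659 and 128 counts, log2 ratio -2.39 and BCL2L13 2394 and 1061 counts, log2 ratio -1.20, while the BH3-only genes BMF (118 and 360 counts, log2 ratio 1.58) and BCL2L11, or BIM (840 and 2049 counts, log2 ratio 1.26), were higher. MCL1 had 5243 and 5916 counts, log2 ratio 0.15 and PMAIP1, or NOXA, 1205 and 754 counts, log2 ratio -0.70. Of 34 lysosome and autophagy genes 9 were higher and 1 lower, with a median of 0.59. The cathepsins CTSB (5057 and 18401 counts, log2 ratio 1.84), CTSD (2570 and 6881 counts, log2 ratio 1.39) and CTSZ (1679 and 4336 counts, log2 ratio 1.34) led, TFEB had 82 and 182 counts, log2 ratio 1.12, interval 0.74 to 1.52, and WIPI1 was lower (930 and 470 counts, log2 ratio -1.01). Of 26 genes of cholesterol and fatty acid synthesis 5 were higher and none lower, and 25 had a positive ratio. They included INSIG1 (1805 and 4949 counts, log2 ratio 1.43), HMGCS1 (1449 and 3944 counts, log2 ratio 1.42), LSS (1401 and 3176 counts, log2 ratio 1.15) and ELOVL6 (1313 and 2788 counts, log2 ratio 1.06). Of 16 measured interferon-stimulated genes IFI6 (16 and 55 counts, log2 ratio 1.76, interval 0.93 to 2.66), IFITM3 (33 and 110 counts, log2 ratio 1.71, interval 1.14 to 2.32) and IFIH1 (236 and 487 counts, log2 ratio 1.02) were higher and none was lower, with a median of 0.37.

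Reference genes were uneven. ACTB had 37181 and 21974 counts, log2 ratio -0.78, GAPDH 27588 and 21761 counts, log2 ratio -0.37, B2M 7157 and 11886 counts, log2 ratio 0.71, SDHA 2273 and 4620 counts, log2 ratio 0.997 and PPIA 11580 and 14607 counts, log2 ratio 0.31, and among the 13 on that list TFRC was higher and RPLP0 lower.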
